A study of Rattus norvegicus with 6 samples.

Results

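The enzymes that make serine and those that carry its one-carbon unit on folate were followed in rat kidney through 8 genes. These were *Phgdh*, *Psat1* and *Psph* for serine synthesis, and *Mthfd1*, *Mthfd2*, *Mthfd1l*, *Aldh1l1* and *Ftcd* for the folate cofactors. They were chosen by their place in the pathway, with earlier results of these data known. All 8 genes were among the 17051 genes in the deposited tables, and all 8 were among the 11553 genes tested, those whose estimated count reached 30 in 1 or more rats. Kidney tissue came from male Sprague Dawley rats. The AL group (rats 61, 71 and 88) ate normal laboratory chow ad libitum for 7 days, and the HD group (rats 64, 67 and 69) received the hyperammonemic diet, chow to which amino acids were added at a daily dose of 3 g per kg, for the same 7 days. The HD diet was meant to raise ammonia production by the kidney while liver function stayed normal, and the AL rats received no added amino acids. The age of the rats is not given in the sources used here. Each rat was 1 library, so *n* = 3 per group, and *P* values set the difference between the groups against the spread between rats.

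Serine is made from the glycolytic intermediate 3-phosphoglycerate by dehydrogenation, transamination and dephosphorylation. A carbon of serine is then handed to tetrahydrofolate by the serine hydroxymethyltransferases, either in mitochondria, where *Mthfd2* and *Mthfd1l* can oxidize it to formate, or in the cytosol, where *Mthfd1* interconverts the folate cofactors, *Aldh1l1* burns the formyl group to CO2 and *Ftcd* feeds in a formimino group from histidine. The kidney is known as an organ that makes serine and releases it into the blood, mainly from the proximal tubule.

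Of the 8 genes, *Aldh1l1* differed most clearly between the diets: it was 1.47-fold higher in the HD group (95% interval 1.23 to 1.76), and every HD rat lay above every AL rat. It did not pass edgeR's quasi-likelihood test at an adjusted *P* value of 0.05, and it did pass DESeq2. *Mthfd1* was 1.15-fold higher (0.967 to 1.36), also without overlap of the rats. The 3 serine synthesis genes and *Ftcd* lay within 1.21-fold of the AL mean with overlapping rats, and the mitochondrial genes *Mthfd2* and *Mthfd1l* had the 2 lowest HD to AL folds, 0.844 and 0.583, with intervals that included no difference.

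Because the results turn on *Aldh1l1* and on the contrast between an abundant and a scarce enzyme of serine synthesis, the 250 bases upstream of the RefSeq transcription start (build GRCr8) are shown for *Aldh1l1*, *Psat1* and *Phgdh*, written 5′ to 3′ on the strand of the gene, with each CCAAT box (CCAAT or its reverse complement ATTGG) in capitals. They lie at chr4:124616970-124617219 on the plus strand, chr1:222645409-222645658 on the minus strand and chr2:188624790-188625039 on the minus strand, respectively. These coordinates are not those of the files, which use build rn5.
Aldh1l1: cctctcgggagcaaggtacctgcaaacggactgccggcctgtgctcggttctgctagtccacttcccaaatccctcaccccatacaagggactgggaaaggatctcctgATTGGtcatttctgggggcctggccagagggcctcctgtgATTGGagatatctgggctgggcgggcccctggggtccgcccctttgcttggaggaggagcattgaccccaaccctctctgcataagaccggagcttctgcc
Psat1: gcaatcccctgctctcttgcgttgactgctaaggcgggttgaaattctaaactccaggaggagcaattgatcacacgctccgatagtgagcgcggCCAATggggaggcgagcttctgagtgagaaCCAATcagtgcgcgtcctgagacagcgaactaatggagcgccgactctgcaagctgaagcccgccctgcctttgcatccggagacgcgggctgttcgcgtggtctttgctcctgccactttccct
Phgdh: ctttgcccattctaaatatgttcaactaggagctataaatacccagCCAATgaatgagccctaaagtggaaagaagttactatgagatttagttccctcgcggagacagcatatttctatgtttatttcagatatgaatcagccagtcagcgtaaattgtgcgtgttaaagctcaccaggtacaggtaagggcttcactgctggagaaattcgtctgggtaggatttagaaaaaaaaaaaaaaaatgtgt
Counted back from -1 at the base before the start, the CCAAT boxes began at -141 and -101 in *Aldh1l1*, at -155 and -125 in *Psat1* and at -204 in *Phgdh*. The G and C content was 60.8% in *Aldh1l1*, 58.0% in *Psat1* and 38.8% in *Phgdh*. RefSeq windows were matched for 7 genes by symbol, all except *Mthfd1*. Only the first listed window of a gene was read, and it was not matched to the start of the rn5 transcript that was counted. A CCAAT box stood in 4 of these 7 windows and in 34.3% of 27457 promoters of the same length. GGGCGG, read on both strands as all motifs here, stood in 4 of 7 and in 32.4% of promoters, and TATAA in 2 of 7, *Phgdh* and *Ftcd*, and in 24.1%. TGATGNAA, a form of the composite element bound by Atf4, and CACGTG stood in 0 of 7, against 3.27% and 5.79% of promoters. No 2 matches in these windows overlapped, and a match of letters is a description of the window only.

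The libraries held between 12499945 (rat 64) and 30466461 (rat 69) estimated counts. Levels within a gene are given as CPM, the counts scaled to library size with TMM normalization, with the SD over 3 rats, and differences between diets as the log2 fold change of HD against AL with its standard error (SE) from edgeR. In bulk kidney RNA, fewer cells of a type and less RNA per cell cannot be told apart. Each of the 8 genes had 1 listed transcript, and 0 other listed transcripts overlapped its exons, so its counts were not divided among isoforms in these tables.

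*Phgdh* (rn5 chromosome 2, 219959694 to 219989012, minus strand, 13 exons) encodes the phosphoglycerate dehydrogenase that commits 3-phosphoglycerate to serine. Its level was 9.21, 10.8 and 20.2 CPM in AL rats 61, 71 and 88 and 13.8, 10.0 and 14.5 CPM in HD rats 64, 67 and 69. All 3 HD rats lay inside the AL range, and AL rat 88 was the highest of the 6. The means were 13.4 ± 5.93 CPM in AL and 12.8 ± 2.39 CPM in HD, and the log2 fold change of -0.07 (SE 0.32) gave an edgeR adjusted *P* of 0.971. Without rat 88 the log2 fold change was 0.36, and without HD rat 67 it was 0.08, so its sign rested on single rats.

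*Psat1* (rn5 chromosome 1, 240241195 to 240263046, minus strand, 10 exons) encodes phosphoserine aminotransferase, which takes the amino group from glutamate. It was measured at 172, 198 and 179 CPM in the AL rats and at 264, 220 and 178 CPM in HD rats 64, 67 and 69. Rats 64 and 67 lay above all AL rats, and rat 69 lay inside the AL range. HD exceeded AL by a log2 fold change of 0.27 (SE 0.16, 95% interval -0.10 to 0.64, edgeR adjusted *P* = 0.615). Without rat 69 it was 0.41, with an unadjusted edgeR *P* of 0.0218 and an adjusted *P* of 0.249.

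*Psph* (rn5 chromosome 12, 32455767 to 32468319, plus strand, 6 exons) encodes phosphoserine phosphatase, the last step to serine. It ran at 18.5, 22.5 and 16.9 CPM in AL and at 26.7, 22.6 and 15.3 CPM in HD rats 64, 67 and 69. The HD rats thus spanned the AL group on both sides, with rat 64 the highest and rat 69 the lowest of all. A log2 fold change of 0.15 (SE 0.23) had an edgeR adjusted *P* of 0.875, and it was -0.03 without rat 64. *Psat1* and *Psph* ordered the HD rats alike, and over the 6 rats their Pearson correlation on log2 CPM was 0.889 (0.954 on deviations from the group means). *Phgdh* did not share this order, at -0.07 with *Psat1* and -0.36 with *Psph*. These correlations are descriptions over 6 rats, which differ in diet and depth.

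*Aldh1l1* (rn5 chromosome 4, 186990816 to 187030955, plus strand, 21 exons) encodes the cytosolic formyltetrahydrofolate dehydrogenase, which returns tetrahydrofolate and makes CO2 and NADPH. Its level was 179.7, 157 and 169 CPM in AL rats 61, 71 and 88 and 238, 237 and 266 CPM in HD rats 64, 67 and 69. The lowest HD rat lay above the highest AL rat, and both groups were tight, with coefficients of variation of 6.82% and 6.56%. The means were 168 ± 11.5 CPM and 247 ± 16.2 CPM. The log2 fold change was 0.55 (SE 0.11, 95% interval 0.29 to 0.81), with an unadjusted edgeR *P* of 0.001335, rank 45 of 11553, and an adjusted *P* of 0.338. DESeq2 gave a log2 fold change of 0.55 with an adjusted *P* of 0.00255. When each rat was left out in turn, DESeq2 still called the gene in 5 of 6 fits, and without rat 88 its adjusted *P* was 0.0878. The exact two-sided permutation test over the 10 divisions of 6 rats gave 0.1, the smallest *P* it allows.

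The summed level of proximal tubule markers was also higher in HD. The 7 markers tested of 8 summed to 8118 to 9520 CPM in the AL group and 10830 to 12410 CPM in the HD group. Of the 7, 6 were higher in HD, with log2 fold changes from -0.05 for *Cubn* to 1.07 for *Slc22a6*. The eighth, *Slc5a12*, was below the count minimum. Within HD the sum was highest in rat 64 and lowest in rat 69, the rat with the highest *Aldh1l1*. Per 1000 CPM of these markers, *Aldh1l1* stood at 18.9, 18.1 and 20.8 in the AL rats and at 19.2, 21.6 and 24.5 in HD rats 64, 67 and 69. On that scale the groups overlapped, with rat 64 inside the AL range, and the exact permutation *P* of the log2 difference of 0.17 was 0.2. This scale was chosen after the levels were seen, and the part of the markers in the result was not tested. The liver markers *Apoa1*, *Cps1* and *Tat* were below the count minimum and *Alb* was at most 1.79 CPM.

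*Mthfd1* (rn5 chromosome 6, 108694405 to 108761891, plus strand, 28 exons) encodes the cytosolic enzyme that joins formate to tetrahydrofolate and interconverts the formyl, methenyl and methylene forms. It was measured at 236, 208 and 226 CPM in AL and at 255, 265 and 247 CPM in HD rats 64, 67 and 69. The 3 HD rats again lay above the 3 AL rats, by a smaller margin. For *Mthfd1* the log2 fold change was 0.20 (SE 0.10, 95% interval -0.05 to 0.44), with an edgeR adjusted *P* of 0.562 and a DESeq2 adjusted *P* of 0.569. Per 1000 CPM of proximal tubule markers *Mthfd1* was 25.6 ± 1.99 in AL and 22.5 ± 1.80 in HD, the opposite order, with an exact permutation *P* of 0.2.

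*Ftcd* (rn5 chromosome 20, 14965126 to 14978635, minus strand, 14 exons) encodes formimidoyltransferase cyclodeaminase, the folate-dependent end of histidine breakdown. Its level was 54.3, 37.0 and 43.7 CPM in AL and 55.6, 27.7 and 52.3 CPM in HD rats 64, 67 and 69. HD rat 67 was the lowest of the 6 and HD rat 64 the highest. The means were 45.0 ± 8.73 and 45.2 ± 15.3 CPM, the log2 fold change was 0.01 (SE 0.27, 95% interval -0.63 to 0.64), and its sign changed with the normalization. Of 3 earlier enzymes of histidine breakdown, 2 were nearly absent from these libraries: *Hal* had 0 to 2 counts and *Amdhd1* had 0 in each rat. *Uroc1* had no entry under that symbol among the 17051 genes, so its level is not known here.

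**Figure D1:**
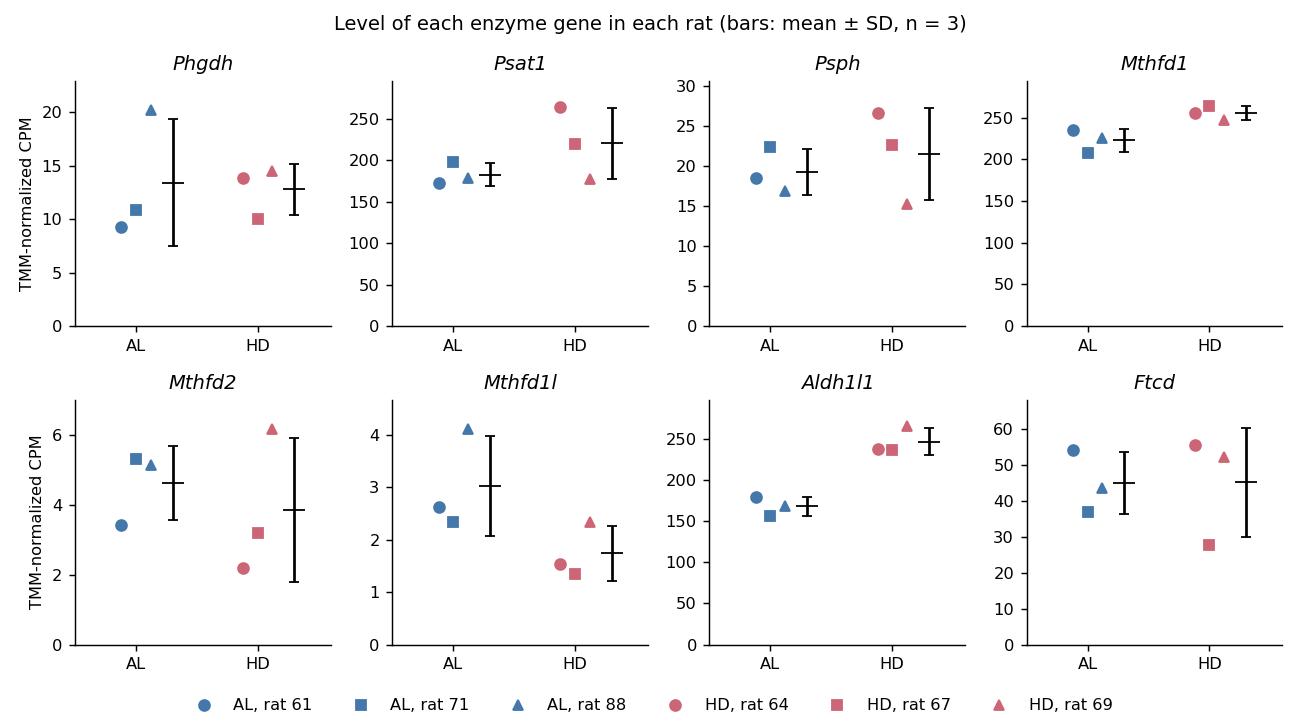
Level of each of the 8 genes in each rat, in TMM-normalized CPM on a linear axis from 0, for the AL group (blue) and the HD group (red). Points are rats and bars are mean ± SD (*n* = 3). The HD rats lie above all AL rats for *Aldh1l1* and *Mthfd1*, and the groups overlap for the other 6 genes.

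The mitochondrial genes were scarce. *Mthfd2* (rn5 chromosome 4, 179592814 to 179604331, minus strand, 8 exons), the methylene-tetrahydrofolate dehydrogenase and cyclohydrolase, had 26 to 193 counts per rat. Its level was 3.42, 5.32 and 5.16 CPM in AL and 2.21, 3.20 and 6.17 CPM in HD rats 64, 67 and 69. Rats 64 and 67 lay below all AL rats and rat 69 above all of them. For *Mthfd2* the log2 fold change was -0.24 (SE 0.41, 95% interval -1.20 to 0.72, edgeR adjusted *P* = 0.888), and without rat 64 it was 0.02.

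*Mthfd1l* (rn5 chromosome 1, 41876363 to 42065392, plus strand, 28 exons) encodes the mitochondrial synthetase that releases formate. It had 33, 42 and 62 counts in AL and 18, 27 and 73 counts in HD rats 64, 67 and 69, or 2.62, 2.33 and 4.10 CPM against 1.53, 1.35 and 2.33 CPM. Rats 64 and 67 were the lowest, and rat 69 lay just inside the AL range. The 18 counts of rat 64 carry an exact Poisson 95% interval of 10.7 to 28.4, which covers counting error only. The log2 fold change of -0.78 (SE 0.38, 95% interval -1.66 to 0.10) had the lowest fold of the 8 genes and an edgeR adjusted *P* of 0.524. Without rat 69 it was -1.07, with an unadjusted edgeR *P* of 0.0446 and an adjusted *P* of 0.306.

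**Figure D2:**
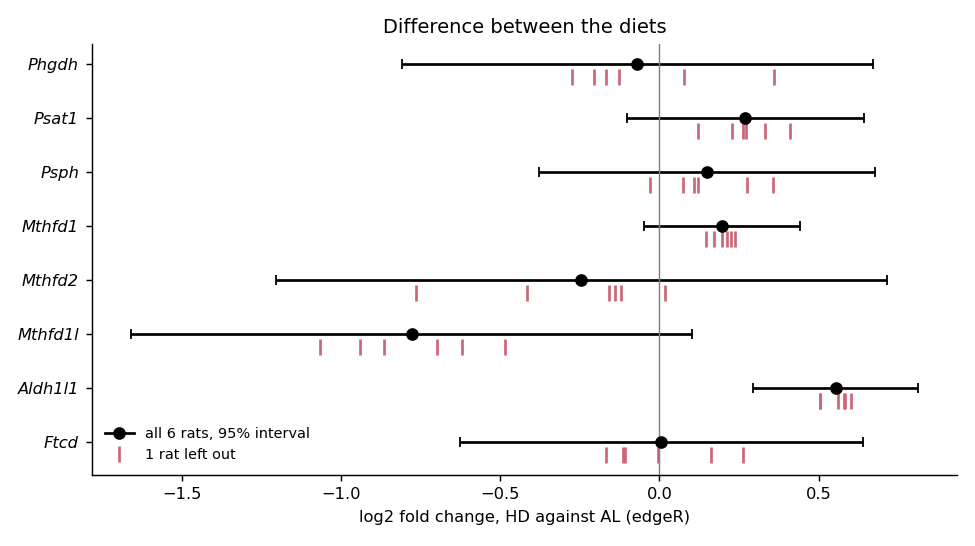
Log2 fold change of HD against AL for each gene from edgeR, with its 95% interval (black) and the values with 1 rat left out (red ticks). The interval of *Aldh1l1*, 0.29 to 0.81, is the only one of the 8 that excludes 0. The ticks of *Phgdh*, *Psph*, *Mthfd2* and *Ftcd* fall on both sides of 0.

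The 8 genes were set against all tested genes. At an adjusted *P* of at most 0.05, edgeR called 0 of the 8 and 0% of the 11553 genes. At an unadjusted *P* below 0.05 it called 1 of 8 (12.5%), where 10.6% of all genes were called (4.66% higher and 5.94% lower in HD). DESeq2 called 1 of 8 at an adjusted *P* of at most 0.05, and 1.58% of all genes. All HD rats lay above all AL rats for 2 of 8 genes (25.0%) against 7.25% of all genes, and below for 0 of 8 against 7.01%. The log2 fold change was above 0 for 5 of 8 (62.5%) and for 51.3% of all genes, with a median of 0.08 over the 8 and 0.01 over all. *Aldh1l1* and *Mthfd1* were also among the least variable genes, with biological coefficients of variation of 0.129 and 0.125, below those of all but 6.7% and 3.3% of tested genes. That of *Mthfd2*, the highest of the 8, was 0.371.

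Levels between genes were compared in TPM, which scales counts to transcript length as well as library size. Over 6 rats the mean TPM was 155 ± 24.7 for *Psat1*, 119.7 ± 24.6 for *Aldh1l1*, 111 ± 6.22 for *Mthfd1*, 37.8 ± 8.86 for *Ftcd*, 28.5 ± 5.79 for *Psph*, 11.5 ± 3.91 for *Phgdh*, 3.28 ± 1.35 for *Mthfd2* and 1.05 ± 0.468 for *Mthfd1l*. The ranges over rats were apart between *Mthfd1* and *Ftcd*, between *Psph* and *Phgdh* and between *Phgdh* and *Mthfd2*. They overlapped between *Psat1* and *Aldh1l1* and between *Aldh1l1* and *Mthfd1*, but *Psat1* (lowest 122.5, AL rat 61) and *Mthfd1* (highest 119.0, HD rat 69) were apart. The ranges of *Ftcd* and *Psph* also overlapped, and this pair kept its order in 4 of 6 rats. *Mthfd2* lay above *Mthfd1l* in 6 of 6 rats, although their ranges overlapped. The mitochondrial genes held little of the summed TPM of the 8 genes, at most 0.964% for *Mthfd2* and 0.425% for *Mthfd1l*, whereas *Psat1* held 28.0% to 36.6%.

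**Figure D3:**
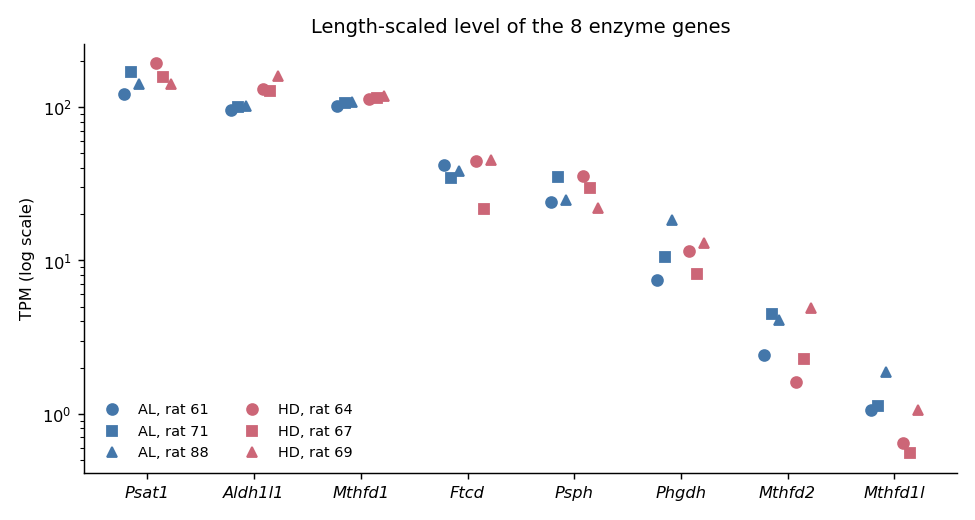
TPM of the 8 genes in each rat on a log axis, ordered by the mean over 6 rats, AL in blue and HD in red. *Psat1*, *Aldh1l1* and *Mthfd1* lie around 100 TPM, with means of 155, 119.7 and 111, and *Mthfd1l* lies around 1 TPM, with a mean of 1.05.

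Ratios of TPM taken within a rat place neighbouring steps side by side. *Aldh1l1* over *Mthfd1* was 0.953, 0.941 and 0.932 in AL rats 61, 71 and 88 and 1.17, 1.12 and 1.34 in HD rats 64, 67 and 69. *Mthfd1* was thus the higher of the pair in each AL rat and *Aldh1l1* in each HD rat, with an exact permutation *P* of 0.1, the smallest possible. The ratio of *Psat1* to *Phgdh* ran from 7.81 to 19.3, so the transaminase transcript exceeded that of the committed dehydrogenase in every rat, and the diets did not separate (13.5 ± 4.93 in AL and 15.7 ± 4.34 in HD, exact permutation *P* = 0.5). The cytosolic *Mthfd1* exceeded the sum of the mitochondrial *Mthfd1l* and *Mthfd2* by 18.3 to 50.1 times. Its mean was 22.3 ± 6.08 in AL and 37.0 ± 15.3 in HD, with HD rat 69 at 20.1 inside the AL range (exact permutation *P* = 0.2). *Aldh1l1* over *Ftcd* was 2.28 to 2.92 in AL and 2.95 to 5.91 in HD, ranges that did not overlap by a narrow margin (exact permutation *P* = 0.1). These 4 ratios are among 10 that were computed, and no *P* of this design can survive adjustment over 10.

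**Figure D4:**
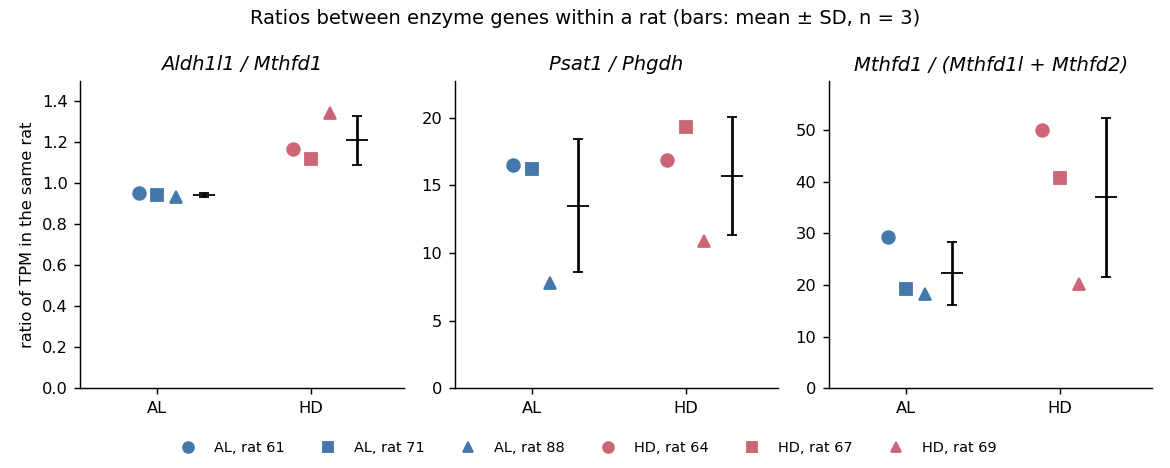
Ratios of TPM within a rat, for *Aldh1l1* over *Mthfd1*, *Psat1* over *Phgdh*, and *Mthfd1* over the sum of *Mthfd1l* and *Mthfd2*, on linear axes from 0. Points are rats and bars are mean ± SD (*n* = 3). The first ratio is 0.932 to 0.953 in AL and 1.12 to 1.34 in HD, and the groups overlap in the other panels.

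The surrounding pathways were read from 9 lists of 77 genes, of which 70 were tested. In edgeR 0 of the 70 passed an adjusted *P* of 0.05, and in DESeq2 only *Pgam2* and *Sesn2* did. At an unadjusted edgeR *P* below 0.05, 13 of the 70 were higher and 0 lower in HD, against 4.66% higher and 5.94% lower over all tested genes. The lists were chosen with earlier results of these data known, and the study had reported *Shmt2*, *Gldc*, *Amt* and *Pgam2* as raised. This count is therefore a description and not a test of the pathways. Among 11 of 14 other folate enzymes, 7 were higher and 4 lower, with a median log2 fold change of 0.09. The mitochondrial *Shmt2*, which moves the carbon of serine onto folate, was 86.8 ± 8.64 CPM in AL and 119 ± 17.2 CPM in HD, without overlap (log2 fold change 0.45, SE 0.14, edgeR adjusted *P* = 0.406). Its cytosolic counterpart *Shmt1* had a log2 fold change of -0.02 (SE 0.15). *Mthfd2l*, the paralog of *Mthfd2*, lay at 0.204 to 0.466 of the TPM of *Mthfd2* (log2 fold change -0.38, SE 0.39), and *Aldh1l2*, the mitochondrial paralog of *Aldh1l1*, had 1 to 9 counts and was not tested.

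All 4 genes of glycine cleavage, the mitochondrial system that also loads a carbon onto folate, had log2 fold changes above 0 (median 0.45), led by *Gldc* at 1.00 (SE 0.35, edgeR adjusted *P* = 0.408) and *Amt* at 0.55 (SE 0.17, edgeR adjusted *P* = 0.406). All 8 genes of a list around choline breakdown, not all of which yield a one-carbon unit, were above 0 as well (median 0.45). Of the 8, 3 had an unadjusted edgeR *P* below 0.05. They were *Dmgdh* at 0.48 and *Sardh* at 0.56, the dehydrogenases of dimethylglycine and sarcosine, and *Aldh7a1* at 0.46. Of 11 genes that use or move serine, 6 were higher and 5 lower (median 0.03). *Sfxn1*, a mitochondrial serine carrier, was higher in each HD rat than in each AL rat (165 ± 8.91 against 235 ± 59.7 CPM, log2 fold change 0.51, SE 0.18, edgeR adjusted *P* = 0.409). Folate uptake and storage showed 3 of 7 higher and a median of -0.02.

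Around the branch from glycolysis, all 4 genes had log2 fold changes above 0 (median 0.26). *Gapdh* and *Pgk1* lead to 3-phosphoglycerate, with *Gapdh* at 0.23 (SE 0.17, edgeR adjusted *P* = 0.688) and *Pgk1* at 0.29 (SE 0.12, edgeR adjusted *P* = 0.468). The mutases *Pgam1* and *Pgam2* draw 3-phosphoglycerate onward in glycolysis. *Pgam1* was at 0.12 (SE 0.12), and *Pgam2* was 1.35 ± 0.311 CPM in AL and 6.68 ± 5.54 CPM in HD (log2 fold change 2.31, SE 0.65, edgeR adjusted *P* = 0.398, DESeq2 adjusted *P* = 0.0312). Atf4 is a transcription factor known to drive *Phgdh*, *Psat1* and *Mthfd2* under amino acid shortage. Of 16 tested genes for Atf4 and its well-known targets other than the 8, 12 were above 0 (median 0.17). *Sesn2* was 30.6 ± 0.297 CPM in AL and 50.1 ± 6.74 CPM in HD (log2 fold change 0.71, SE 0.12, edgeR adjusted *P* = 0.327, DESeq2 adjusted *P* = 0.00352). *Chac1* was at 1.59 (SE 0.62, edgeR adjusted *P* = 0.437, DESeq2 adjusted *P* = 0.320) with overlapping rats. The genes below 0 were *Atf4* itself at -0.10 (SE 0.19), *Nupr1* at -0.93 (SE 0.42), *Ddit4* at -0.53 (SE 0.39) and *Slc7a11* at -0.39 (SE 0.31).

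**Figure D5:**
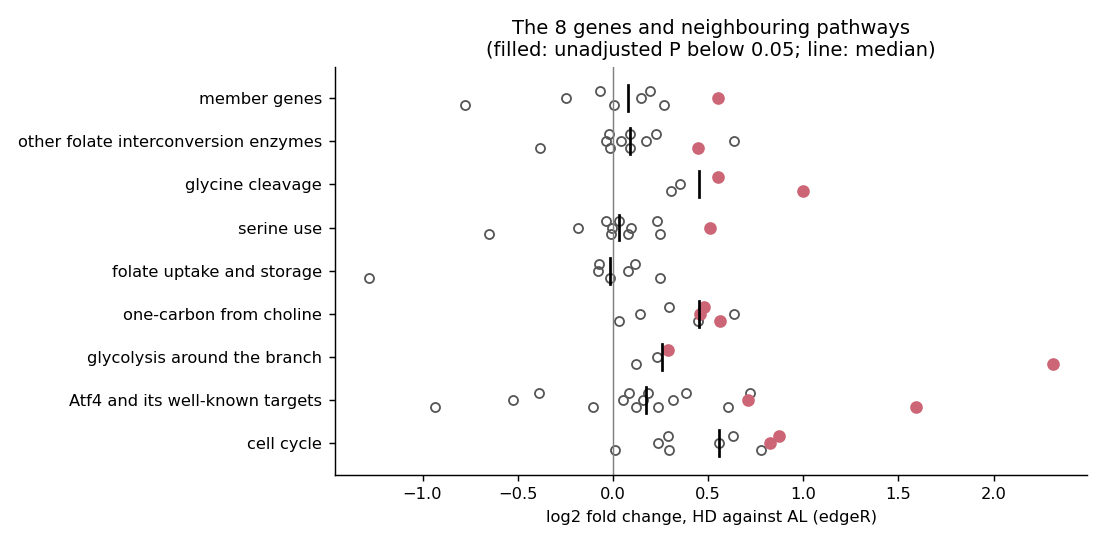
Log2 fold change of HD against AL from edgeR for the 8 genes (top line, member genes) and for the tested genes of the surrounding lists. Filled points have an unadjusted *P* below 0.05, and the vertical bar is the median of each list. The 13 filled points below the top line all lie to the right of 0, and medians run from -0.02 for folate uptake and storage to 0.56 for the cell cycle.

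The genes whose levels followed each of the 8 most closely over the 6 rats, by Pearson correlation on log2 CPM among 11545 genes, differed from gene to gene. They were *Grb14* (0.987) and *Llgl2* (0.980) for *Phgdh*, *Snx27* (0.993) and *Slc29a3* (0.987) for *Psat1*, and *Spock1* (0.981) and *Nipa2* (0.981) for *Psph*. For the cytosolic enzymes they were *Tkt* (0.992) and *Pex14* (0.988) for *Aldh1l1*, *Resp18* (0.986) and *Ppdpf* (0.986) for *Mthfd1*, and *Txnrd3* (0.993) and *Txn2* (0.973) for *Ftcd*. For the mitochondrial genes they were *Slc44a2* (0.997) and *Chp2* (0.994) for *Mthfd2*, and *Mbd1* (0.992) and *Gdf11* (0.984) for *Mthfd1l*. Between 25 genes (*Ftcd*) and 353 genes (*Mthfd2*) of the 11545 reached 0.9 or more. The 2 genes named for each were the highest of 11545 over only 6 rats, so their correlations are high by selection. They are descriptions, and shared regulation was not tested. *Chp2* had a mean of only 0.639 CPM.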

How the data were processed

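Poly(A)-selected kidney RNA was sequenced for 6 rats, 3 per diet group, with the group taken from the diet in the labels. The authors quantified transcripts with RSEM 1.1.15 at default parameters against gene definitions for build rn5 and deposited an estimated count (expected count), not normalized, for each transcript and rat. The authors also deposited TPM and FPKM values, which scale counts to transcript length and library size. Estimated counts were summed per gene and rounded. TPM was summed per gene for levels between genes. Genes whose count reached 30 in 1 or more rats were tested by edgeR's quasi-likelihood test (edgeR 4.0.16, R 4.3.3, TMM, diet only) with Benjamini-Hochberg adjustment over 11553 genes. DESeq2 1.42.0, the tool of the study, limma 3.58.1 and other filters and normalizations were alternatives. The code was tested on simulated data. Permutation tests were exact and two-sided. They used log2 of CPM plus 0.5 for single genes and log2 of the ratio, with nothing added, for ratios. edgeR estimated a common biological coefficient of variation of 0.242.

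The members, the surrounding gene lists and the marker lists were chosen with earlier results of these data known. List genes were named where their unadjusted *P* was below 0.05 or where they neighbour a member. For each member the 2 genes with the highest correlation were named. *Atf4*, *Nupr1*, *Ddit4*, *Slc7a11*, *Gapdh*, *Pgam1*, *Cubn* and *Slc22a6* were named after their values were seen. Promoter windows came from RefSeq (GRCr8) and were read by symbol.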

Additional observations from a re-analysis of the deposited data

How the results depend on the processing

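*Aldh1l1* kept its direction in 15 of 15 alternatives, with an unadjusted *P* below 0.05 in each and adjusted *P* values from 0.00255 to 0.916. It passed the threshold with DESeq2 (log2 fold change 0.5456). With 1 rat left out its log2 fold change ran from 0.5027 to 0.6025 in edgeR and from 0.4866 to 0.5908 in DESeq2, where the adjusted *P* ran from 0.0009358 to 0.0878. The DESeq2 fits with a rat left out were added after the data were seen. *Psat1* (0.1202 to 0.4103 with 1 rat left out of edgeR), *Mthfd1* (0.1476 to 0.2364) and *Mthfd1l* (-1.0652 to -0.4865) also kept their direction in 15 of 15. The log2 fold change of *Ftcd* was below 0 with DESeq2 (-0.0007), RLE normalization (-0.0008), library size alone (-0.058), a minimum count of 10 in every rat (-0.0057), limma-voom (-0.0467) and limma on log2 TPM (-0.1099), and with 1 rat left out it ran from -0.1669 to 0.262 in edgeR and from -0.1756 to 0.2602 in DESeq2. Over the same fits *Phgdh* ran from -0.2759 to 0.359 and from -0.2878 to 0.3455, *Psph* from -0.0302 to 0.3564 and from -0.0413 to 0.3381, and *Mthfd2* from -0.7656 to 0.0188 and from -0.7819 to 0.0127. The cause was not tested.

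Over all genes, edgeR called 0 at an adjusted *P* of at most 0.05, DESeq2 182, and edgeR 2 when genes with any count above 0 were tested. With 1 rat left out the calls ran from 0 to 4 in edgeR and from 53 to 647 in DESeq2. At an unadjusted *P* below 0.05 edgeR called 1224 genes, 538 higher and 686 lower, and with library size alone 317 higher and 847 lower. With 1 rat left out the number ran from 606 (without rat 88) to 1744 (without rat 69) in edgeR, with 639 without rat 64, and from 721 to 1842 in DESeq2. Of the 8 genes 1 was called at that threshold, where 10.6% of all genes were, and without rat 69 it was 3 of 8, where 15.6% of all genes (1744 of 11212) were. No paired analysis was possible because the labels give each rat a number of its own and the groups share none.

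With 3 rats per group the 95% intervals of all genes except *Aldh1l1* and *Mthfd1* include both no difference and a 1.5-fold difference in at least 1 direction. Depth limits *Mthfd1l* and *Mthfd2* most, at 18 and 26 counts in the shallowest library. Each gene had 1 listed transcript, and other isoforms were not examined.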

Other observations

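Dividing cells need the formyl and methylene folates for purine and thymidylate synthesis. All 9 genes of a short cell cycle list had log2 fold changes above 0 in HD (median 0.56, against 0.01 over all tested genes), and 0 passed an edgeR adjusted *P* of 0.05. *Rrm2*, the small subunit of ribonucleotide reductase, was 7.52 ± 1.02 CPM in AL and 13.8 ± 4.26 CPM in HD (log2 fold change 0.87, SE 0.27, edgeR adjusted *P* = 0.406). *Ccnb1*, a mitotic cyclin, was 2.997 ± 0.671 CPM in AL and 5.37 ± 1.67 CPM in HD (log2 fold change 0.83, SE 0.32, edgeR adjusted *P* = 0.434). These were the 2 of the 9 genes whose rats did not overlap between the groups, where 7.25% of all tested genes had every HD rat above every AL rat.

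Markers of other cells differed between the groups in the same libraries. The 4 podocyte markers summed to 47.8 to 115 CPM in AL and 168 to 356 CPM in HD, with 4 of 4 higher. The 5 leukocyte markers summed to 223 to 369 CPM in AL and 134 to 290 CPM in HD, a sum made mostly of *Cd74* (log2 fold change -0.27). All 5 had log2 fold changes below 0 (median -1.22), and *Ptprc* was at -1.61 (edgeR adjusted *P* = 0.368, DESeq2 adjusted *P* = 0.0133). The thick ascending limb markers summed to 5485 to 6232 CPM in AL and 3648 to 5915 CPM in HD, those of the late proximal tubule to 6692 to 7864 CPM and 5708 to 9539 CPM, and those of the endothelium to 75.5 to 200.3 CPM and 61.2 to 204 CPM. Those of the distal tubule and collecting duct summed to 1183 to 1382 CPM in AL and 1162 to 1861 CPM in HD, and 4 of 6 had rats without overlap. Over all tested genes this held for 7.25% with HD higher and 7.01% with HD lower. Of the 4, *Slc12a3* (log2 fold change 2.93, edgeR adjusted *P* = 0.338, DESeq2 adjusted *P* = 0.00473) and *Calb1* (2.05, DESeq2 adjusted *P* = 0.0676) were higher in HD. *Aqp3* (-0.41, DESeq2 adjusted *P* = 0.261) and *Avpr2* (-0.54, DESeq2 adjusted *P* = 0.252) were lower. The intercalated cell markers summed to 776 to 954 CPM in AL and 644 to 767 CPM in HD, mostly through *Slc4a1* (log2 fold change -0.56), while 3 of 4 were higher (median 0.25), with *Slc26a4* at 1.20 (edgeR adjusted *P* = 0.327, DESeq2 adjusted *P* = 0.000206). These markers were named after their values were seen. The part of these differences in the levels of the 8 genes was not tested.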
